A study of Homo sapiens with 7 samples.

Results

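The ZNF (zinc finger) genes of chromosome 19 were examined in HepG2, a human liver cancer cell line that keeps many hepatocyte functions. They were taken as the loci of the expression table on chromosome 19 with a gene name of ZNF followed by digits, a rule that used the name and the chromosome and no measured value. There were 237 such loci among 30032 in the table, of which 1711 were on chromosome 19, and they carried 244 different ZNF symbols. The series has 7 samples of HepG2, with 1 sample per assay: RNA-Seq, native MNase-Seq, which maps nucleosomes on chromatin that was not crosslinked, and ChIP-Seq of 5 histone marks. H3K4me3, H3K9ac and H3K27ac mark active promoters, H3K27me3 is the Polycomb mark and H3K9me3 is the mark of constitutive heterochromatin. The labels give no treatment, no second line and no replicate, so no groups were compared and no P value was computed. Values are set beside those of 22065 named loci on chromosomes 1 to 22, X and Y. Intervals are 95% intervals, exact binomial for shares and from order statistics for medians, and they cover counting error only.

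Most ZNF genes of chromosome 19 encode proteins with a KRAB domain followed by an array of zinc fingers, and they arose by repeated tandem duplication, which left them in clusters of similar neighbours. The KRAB domain recruits the corepressor TRIM28, which brings the histone methyltransferase SETDB1 and the HP1 proteins, and H3K9me3 is then placed where the fingers bind, in many cases in transposable elements. ZNF genes are themselves known H3K9me3 targets in several cell lines, and ZNF274 is known to bind at the 3' part of many of them.

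The deposited peaks number from 26271 for H3K27me3 to 95886 for H3K27ac, with 34534 for H3K9me3, on 14217405 nucleosome positions, and read depth behind a peak is unknown. A position that carried H3K4me3, H3K9ac and H3K27ac together is called trivalent, or T. The RNA sample has 2 FPKM columns (fragments per kilobase of transcript, scaled to the library), and their mean is given unless both are named. Hepatocyte genes were high, with a mean FPKM of 10011 for ALB, 5209 for APOA2 and 3798 for AFP, and of 56.6 to 1061 for FGB, TTR and SERPINA1. The blood genes PTPRC and CD3E were listed at 0, HBB was at 0.0375, and the fibroblast and endothelial genes COL1A1, COL1A2, PDGFRB, PECAM1 and CDH5 were between 0.137 and 2.0.

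Of the 237 ZNF loci, 224 lay in 10 clusters, defined by gaps of less than 500 kb and at least 5 loci, and 13 lay outside them. There were 128 loci on the plus strand and 109 on the minus strand, with a median length of 26366 bp and a range of 3835 to 414626 bp. The transcript models merge neighbours in places. The 237 loci had 206 different sets of coordinates, 70 loci shared their coordinates with another locus, 20 held several symbols and 3 also held a gene that is no ZNF. In addition, 5 have a symbol that ends in P, as pseudogenes do. The 153 loci with coordinates and a symbol of their own are therefore given separately where it matters. How reads of near-identical paralogs were divided between loci was not tested, and in a bulk culture fewer expressing cells and less RNA per cell cannot be told apart.

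Most chromosome 19 ZNF genes were transcribed, and few reached a high level. The median FPKM was 1.88 (interval 1.60 to 2.30), against 1.26 (1.13 to 1.41) for all named loci, with quartiles of 0.857 and 3.86, and the highest value was 26.8. An FPKM of 1 or more was measured in 170 of 237 loci (71.7%, 65.5 to 77.4), against 51.4% of all named loci. Few were silent, since 24 (10.1%) were under an FPKM of 0.1, against 36.6% of named loci. Few were high either, since 16 (6.75%) reached an FPKM of 10, against 28.5%. The remaining 43 loci not counted as expressed or silent were between 0.1 and 1. The narrow range also shows in the 90th percentile, which was 7.25 for these loci and 36.5 for all named loci. Among the 153 loci of their own coordinates, 73.2% were at 1 or more, against 47.6% of such named loci.

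The 299 ZNF loci on other chromosomes were expressed in a similar share, 71.6%, with a median FPKM of 3.07 (2.66 to 3.80), and 14% of them reached an FPKM of 10. The genes that lie between the ZNF genes differed from them. Of 106 named loci inside the clusters with no ZNF symbol, 26.4% were at an FPKM of 1 or more, with a median of 0.0710. Both FPKM columns gave similar values for the ZNF loci: all 170 expressed loci were within 2-fold, with a median absolute log2 difference of 0.14. The widest gap among them was at ZNF414, with an FPKM of 2.94 in the first column and 4.49 in the second, a log2 difference of 0.61.

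ZNF146, which consists of zinc fingers without a KRAB domain, had the highest level, with FPKM values of 26.4 and 27.3. ZNF787 followed with 25.7 and 25.5. The locus that holds ZNF580 and ZNF581 had 19.9 and 19.8. ZNF444, a zinc finger protein with a SCAN domain, had 18.6 and 18.9, and the locus that joins ZNF428 to the adhesion gene CADM4 had 17.4 and 18.4. ZNF787, ZNF444 and the ZNF580 locus lie in the most distal cluster. ZNF146 and ZNF787 were above the other 3 in both columns. At the other end of the range, 5 loci were listed at 0 in both columns: ZNF812, ZNF826P, ZNF98, ZNF284 and ZNF536.

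**Figure D1:**
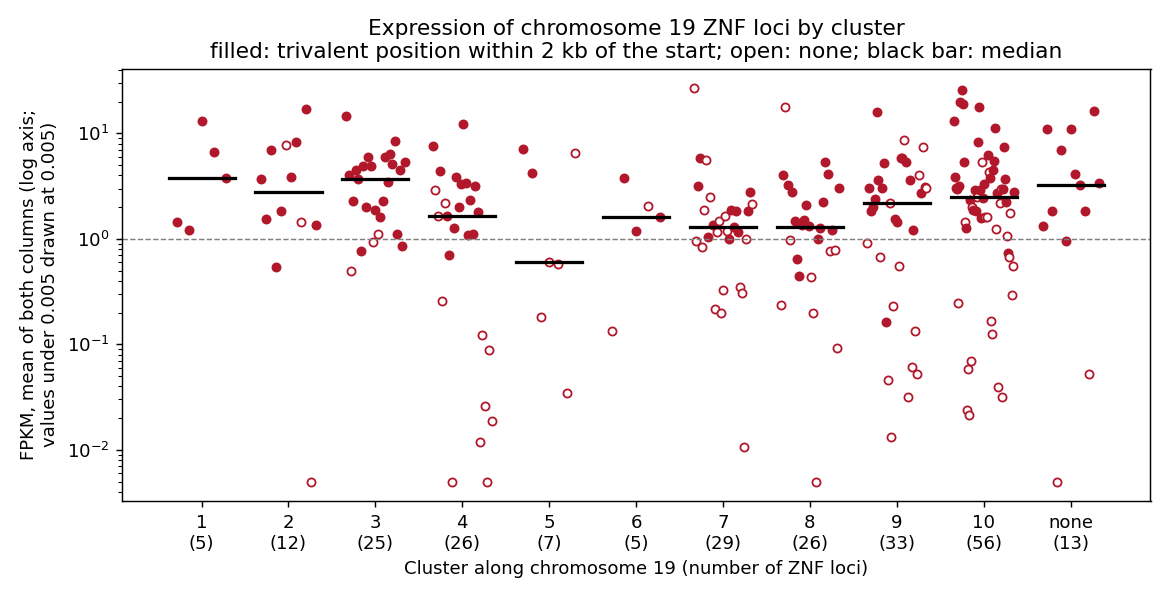
FPKM of each chromosome 19 ZNF locus (mean of both columns, log axis) by cluster in chromosome order, filled where a T position lies within 2 kb of the start and open where none does, with black bars at the medians. Most loci sit between 1 and 10, no filled point is under 0.1, and most silent loci are in clusters 4, 9 and 10.

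The median level ranged from 0.599 to 3.75 FPKM between clusters, which are numbered here from the short-arm end. Cluster 3, with 25 loci from ZNF653 to ZNF791, had a median FPKM of 3.70, and 84.0% of its loci (63.9 to 95.5) were expressed. The 5 loci of cluster 1 were all expressed, with a median of 3.75. Cluster 10, the distal cluster of 56 loci, had a median of 2.48 with 76.8% expressed. Lower medians were found in cluster 7 with 1.30, cluster 8 with 1.30 and the 7 loci of cluster 5 with 0.599, of which 3 are listed as ZNF726 with the same coordinates. The intervals of these shares are wide where a cluster has few loci, and in cluster 5 the interval runs from 9.90 to 81.6%.

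Within cluster 4, which spans chr19:19778104-22952784 (hg19) and holds 26 ZNF loci, 6 low loci were neighbours. The 6 loci at its high-coordinate end were ZNF208, ZNF257, ZNF676, ZNF98, ZNF492 and ZNF99. They lay side by side over 0.804 Mb (chr19:22148897-22952784), and none exceeded an FPKM of 0.121. ZNF208 had FPKM values of 0 and 0.0239, ZNF676 of 0 and 0.0517, and ZNF492 of 0.105 and 0.0721. ZNF43, the nearest neighbour on the low-coordinate side, had 1.75 and 1.86. Elsewhere in cluster 4, ZNF826P was listed at 0 and ZNF93 had 0.261 and 0.258. None of the 6 had a T position at the start, 1 of them, ZNF257, had H3K4me3 there, and 5 of them had H3K9me3. Of the other 20 loci of cluster 4, 15 had a T position at the start and 18 had H3K4me3 there, while 17 had H3K9me3. Over this stretch 39 of 4010 positions carried H3K9me3 (0.973%, 0.692 to 1.33). It was the one stretch of 5 or more neighbouring ZNF loci of a cluster that were all under an FPKM of 1, and it was singled out after its values were seen.

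Active promoter marks were found at the start of most ZNF loci. Within 2 kb of the start, H3K4me3 was present at 167 of 237 loci (70.5%, against 51.6% of named loci), H3K9ac at 160 (67.5%, against 48.8%) and H3K27ac at 149 (62.9%, against 44.1%). At least 1 T position was present at 143 loci (60.3%, 53.8 to 66.6), against 41.6% of named loci. With 3 or more T positions there were 72 loci (30.4%, 24.6 to 36.7), an interval that includes the 26.8% of named loci. Among the 153 loci of their own coordinates, 67.3% had a T position at the start, against 42.9%. ZNF loci on other chromosomes had a T position in 57.9% (52.0 to 63.5), an interval that overlaps that of the chromosome 19 loci.

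**Figure D2:**
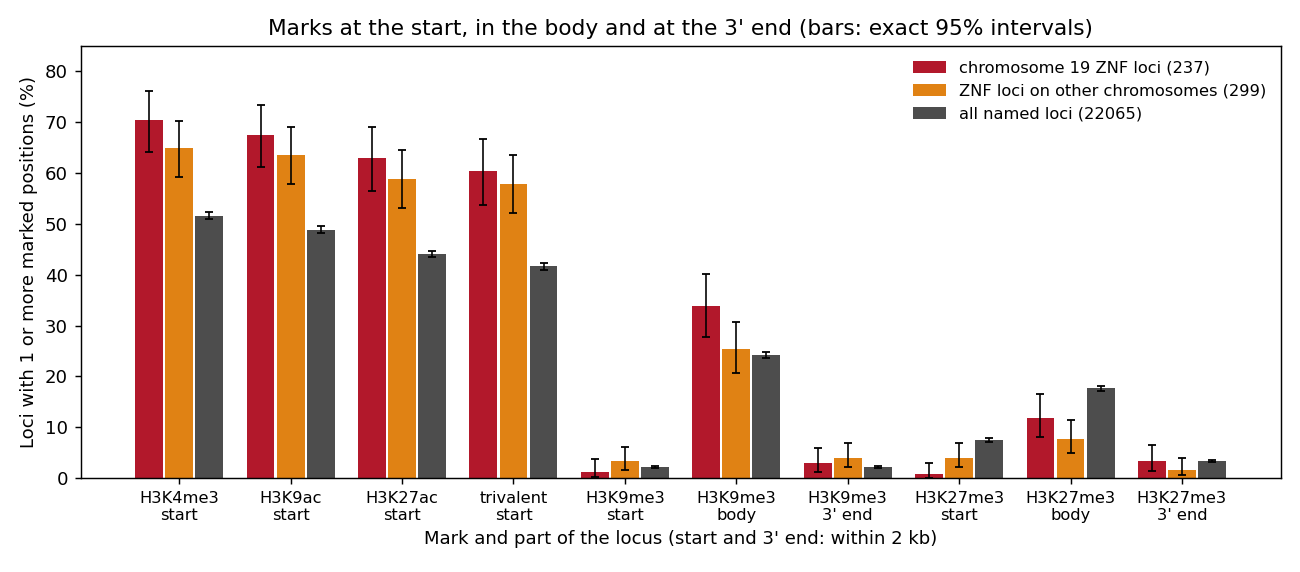
Share of loci with 1 or more positions of each mark within 2 kb of the start, in the body and within 2 kb of the 3' end, for chromosome 19 ZNF loci, ZNF loci on other chromosomes and all named loci, with exact 95% intervals. At the start T reaches 60.3% of chromosome 19 ZNF loci and 41.6% of named loci, while H3K9me3 is found in the body of 33.8% and at the start of 1.27%.

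The T positions lay just downstream of the start. In the first 500 bp of the 153 loci of their own coordinates, 45.2% of nucleosome positions (39.7 to 50.8) were T, against 24.6% over all such named loci. From 500 to 1000 bp the shares were 19.1% and 16.7%, and beyond 2000 bp downstream the next 500 bp held 0 T among 382 positions (0 to 0.961%), where named loci had 1.48%. Upstream, 8.58% of positions in the nearest 500 bp were T (5.68 to 12.3), against 10.4% over such named loci. ZNF loci on other chromosomes had 15.3% (11.9 to 19.2) there. The share in the nearest 500 bp downstream was also high in ZNF loci on other chromosomes, at 47.1% (41.9 to 52.3). From 1000 to 1500 bp those loci had 10.6% (8.03 to 13.8), against 5.03% (3.05 to 7.74) on chromosome 19. From 2000 to 2500 bp those loci had 2.69% (1.44 to 4.55), above the chromosome 19 interval. In the other bins within 2000 bp downstream the intervals of both ZNF sets overlap. The chromosome 19 share was thus above that of named loci in the first 500 bp downstream. Its intervals from 500 to 2000 bp include the shares of named loci.

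ZNF792 had the most T positions of all members, 8 among 19 positions at its start, with FPKM values of 1.49 and 1.75. ZNF563 had 7, with 4.99 and 5.37. The locus of ZNF69 and ZNF763 had 7 as well, with 5.56 and 6.38, and ZNF700, which has the same coordinates in the table, had 4.73 and 5.09. ZNF444 had 6 T positions and an FPKM of 18.8, so the highest counts of T did not mark the highest levels.

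Expression was associated with T, over a narrower range of levels than in named loci as a whole. The median FPKM was 0.633 for the 94 ZNF loci with no T position at the start, 2.21 for 30 loci with 1, 2.80 for 41 loci with 2, 2.92 for 36 loci with 3, and 4.11 (3.20 to 5.80) for 36 loci with 4 or more. All named loci with 4 or more had a median of 14.9 (14.3 to 15.7), those with 1 had 6.19, and those with none had 0.0409, below the ZNF loci with none (0.296 to 0.993). The ZNF loci with none include merged and shared loci. Among loci of their own coordinates, the 50 ZNF loci with none had a median of 0.173 (0.0691 to 0.766), against 0.0151 in such named loci. ZNF loci on other chromosomes with 4 or more had a median of 6.06 (4.46 to 6.88), an interval that overlaps that of the chromosome 19 loci. Of the loci with 1 T position 27 of 30 were expressed (73.5 to 97.9%), and of those with 4 or more 94.4% were. Across the 153 loci of their own coordinates, the Spearman correlation of the number of T positions with FPKM was 0.61, against 0.76 over 13289 named loci. Genes share libraries and are not independent, so these are descriptions.

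**Figure D3:**
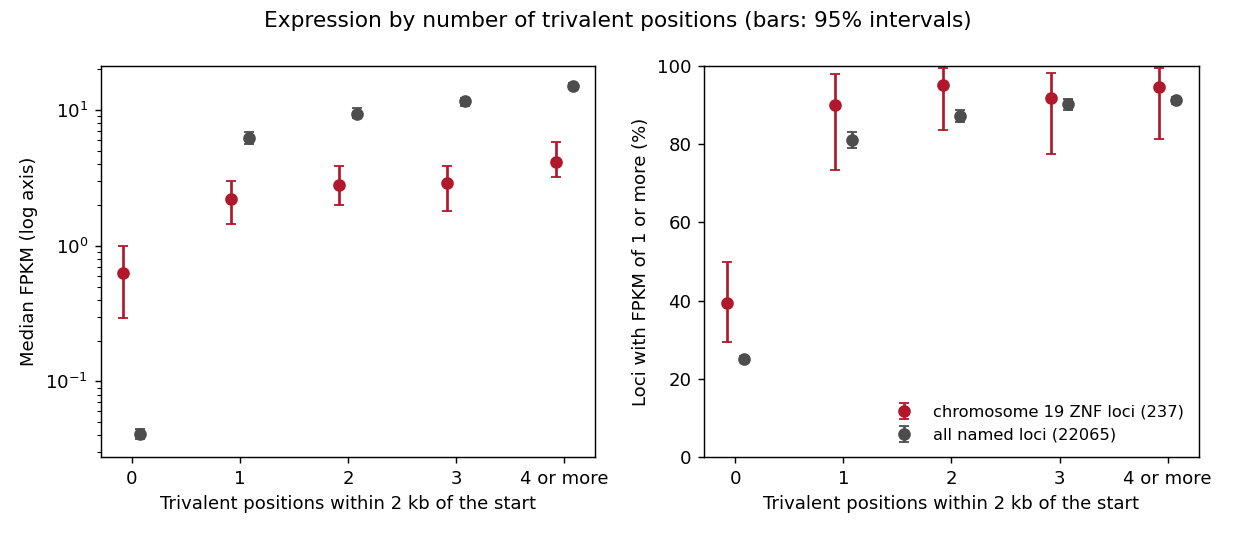
Median FPKM (left, log axis) and share of loci with an FPKM of 1 or more (right) by number of T positions within 2 kb of the start, for chromosome 19 ZNF loci and all named loci, with 95% intervals. Merged and shared loci are included. With no T position the ZNF median of 0.633 is above the 0.0409 of named loci. From 1 T position upwards the ZNF medians stay between 2.21 and 4.11 while those of named loci go from 6.19 to 14.9, and the shares expressed are similar.

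None of the 24 silent ZNF loci had a T position at the start, and 10 of them had no marked position of any kind in the locus. These shares were not computed for silent named loci. Of the loci with T, 10 were under an FPKM of 1, the lowest being ZNF610 with 0.148 and 0.177. With T, 93.0% of ZNF loci and 88.6% of named loci were expressed. On the other side, 37 expressed loci had no T position at the start, and 20 of these had no marked position there at all. ZNF146 was among them, with 5 T positions inside the locus and none at its outer start. The locus of ZNF28, ZNF320 and ZNF468 had FPKM values of 8.94 and 8.32 and 2 T positions in the body. The locus of ZNF266 and ZNF560 had 7.78 and 7.63 and also 2 T positions in the body. These loci have merged or shared coordinates, and in the 30 loci of their own coordinates with no activation mark at the start, 2 were expressed and the median FPKM was 0.0554.

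RefSeq promoter windows (GRCh38.p14, 250 bases before to 50 after the start) were found for 110 of the 153 ZNF loci with their own coordinates, and all 110 lay on the strand inferred from the table. They had a median of 20 CG pairs in 300 bases, against 22 over the 6332 named loci matched in the same way and 12 over all 22114 windows. ZNF loci with a T position had a median of 20 CG pairs, those with another activation mark but no T had 21.5, and the 17 with no activation mark, whose median FPKM was 0.0691, still had 17. Over all named loci the medians of these classes were 27, 25 and 6. The letters TATAAA, on either strand, occurred in 3 of 110 windows (2.73%), against 12.7% of all 22114 windows. Their share in the 6332 matched named loci, the closer comparison, was not computed.

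A run of 10 letters, TCCAATCAGG or its complement CCTGATTGGA, was shared by more of these windows than any other run of that length. It was found in 30 of 110 ZNF windows (27.3%) and in 97 of all 22114 (0.439%), 56 of which belong to a gene named ZNF. It contains CCAAT, the letters of the CCAAT box. Its place among the clusters was uneven. It occurred in 11 of 14 windows of cluster 3, in 14 of 16 of cluster 4, in 3 of 3 of cluster 5 and in 2 of 4 of cluster 1, and in no window of the other clusters or of loci outside them. ZNF loci with the run had a median of 12.5 CG pairs, an FPKM median of 3.12 and a T position in 24 of 30 (80.0%). Those without it had 22 CG pairs, an FPKM median of 1.83 and a T position in 55 of 80 (68.8%). The share with an FPKM of 1 or more was 76.7% with the run and 75% without it. A match is a description of the letters and not of a bound site, and the run was chosen because it was the most frequent.

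The 250 bases before the start are shown for 5 loci, with TCCAATCAGG or its complement in capitals, to set the promoter with the most T positions, and the 2 with the most T positions among those that hold the run, beside silent ones. ZNF792 (chr19:34964230-34964479, minus strand, GRCh38.p14) is the locus with 8 T positions, and it has 24 CG pairs in its window and no such run. ZNF91 (chr19:23395472-23395721, minus strand), a known repressor of SVA retrotransposons, had 5 T positions and FPKM values of 7.18 and 7.14. ZNF441 (chr19:11766750-11766999, plus strand) had 4 T positions and FPKM values of 3.45 and 3.95. ZNF208 (chr19:22010944-22011193, minus strand) and ZNF492 (chr19:22634074-22634323, plus strand) belong to the low stretch of cluster 4 and had no activation mark at the start.
ZNF792: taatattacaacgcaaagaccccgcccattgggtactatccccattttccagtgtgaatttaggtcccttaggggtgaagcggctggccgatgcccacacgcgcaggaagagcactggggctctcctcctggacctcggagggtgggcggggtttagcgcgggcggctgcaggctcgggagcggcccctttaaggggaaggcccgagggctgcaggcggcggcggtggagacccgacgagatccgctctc
ZNF91: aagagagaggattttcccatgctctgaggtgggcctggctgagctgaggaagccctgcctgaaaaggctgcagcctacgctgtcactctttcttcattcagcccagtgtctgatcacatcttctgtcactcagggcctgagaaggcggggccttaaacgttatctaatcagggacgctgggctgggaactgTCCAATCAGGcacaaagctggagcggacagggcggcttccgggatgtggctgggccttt
ZNF441: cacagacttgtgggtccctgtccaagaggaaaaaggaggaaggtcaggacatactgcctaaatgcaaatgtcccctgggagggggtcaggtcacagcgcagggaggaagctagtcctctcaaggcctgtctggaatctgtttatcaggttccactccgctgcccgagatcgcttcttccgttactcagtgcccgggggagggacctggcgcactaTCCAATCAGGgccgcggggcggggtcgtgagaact
ZNF208: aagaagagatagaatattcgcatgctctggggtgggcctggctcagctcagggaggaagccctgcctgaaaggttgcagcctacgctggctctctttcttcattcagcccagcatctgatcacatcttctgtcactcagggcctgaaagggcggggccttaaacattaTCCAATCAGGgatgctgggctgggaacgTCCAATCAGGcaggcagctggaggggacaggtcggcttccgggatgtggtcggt
ZNF492: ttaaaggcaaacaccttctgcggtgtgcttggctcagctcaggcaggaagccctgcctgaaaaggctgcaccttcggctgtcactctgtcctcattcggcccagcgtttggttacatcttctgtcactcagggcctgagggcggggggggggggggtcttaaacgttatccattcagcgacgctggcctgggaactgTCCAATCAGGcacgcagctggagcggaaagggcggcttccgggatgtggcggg
The capitals stand in the expressed ZNF91 and ZNF441 and in both silent loci of cluster 4, with 2 copies in ZNF208.

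H3K9me3 was found in the bodies of ZNF loci more often than in named loci, over all loci and among those of their own coordinates. Within 2 kb of either end any difference was within the counting intervals. It was present at the start of 3 of 237 loci (1.27%, 0.262 to 3.65), against 2.10% of named loci. In the body it was present in 80 loci (33.8%, 27.8 to 40.2), against 24.2%. Within 2 kb of the 3' end it was present in 7 loci (2.95%, 1.2 to 5.99), against 2.23%. The 33.8% counts loci that share coordinates separately, and its interval treats them as independent. With 1 locus for each set of coordinates the body share was 29.1%, and its interval includes the 24.2% of named loci. The named loci were not reduced in this way. Among loci of their own coordinates the body share was 26.8% (20.0 to 34.5), against 19.2%, and the share at the 3' end was 3.27%, against 2.61%. The intervals at the start and the 3' end include the value for named loci. With windows of 5 kb the shares were 5.06% at the start and 9.70% at the 3' end. Named loci were not counted at 5 kb, so these 2 shares have no background. Of ZNF loci on other chromosomes, 25.4% (20.6 to 30.7) had H3K9me3 in the body. The share was 19.2% (13.9 to 25.4) among those of their own coordinates. Both intervals overlap those of the chromosome 19 ZNF loci. Loci on chromosome 19 without a ZNF symbol and outside the clusters had H3K9me3 in the body in 5.22%.

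H3K9me3 was sparse in absolute terms. The ZNF loci with 2 kb at both ends held 110 of the 34534 H3K9me3 positions of the genome (0.319%, 0.262 to 0.384), close to their share of all nucleosome positions, 0.280%. On chromosome 19 they held 20.2% (16.9 to 23.8) of the 545 H3K9me3 positions and 14% of all positions. Chromosome 19 itself had H3K9me3 on 0.192% of its positions, which ranks it 18 of 24 chromosomes. Of the 84 ZNF loci with H3K9me3, 46 had 1 position, 38 had 2 or more and the most was 8. Just 1 of the 110 positions also carried an activation mark and 2 also carried H3K27me3.

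Inside the loci the share of H3K9me3 was highest in the third of 4 parts, though the intervals of the parts overlap. When the 153 loci of their own coordinates were cut into 4 equal parts from start to 3' end, 0.215%, 0.229%, 0.540% and 0.327% of positions carried H3K9me3, from 11, 12, 28 and 17 marked positions. The third part had an interval of 0.359 to 0.780, above the 0.181% of all named loci in the same part. Named loci showed no such gradient, with 0.168 to 0.184% in each part. On ZNF loci of other chromosomes the shares were 0.131%, 0.147%, 0.216% and 0.296%. No pile-up was found at the 3' end itself: in the 2 kb before it 3 of 1599 positions of the chromosome 19 loci were marked (0.188%). The highest bin was 8 to 10 kb upstream of it, with 9 of 1576 (0.571%, 0.261 to 1.08), against 0.153% in named loci. The flanks reached similar shares. From 6000 to 8000 bp beyond the 3' end 9 of 1586 were marked (0.567%), though from 2000 to 4000 bp the share was 0.127%. From 4000 to 6000 bp before the start it was 0.506% (0.219 to 0.994). High bins were thus not confined to the inside of the loci. Around the start, 0 of 1471 positions in the 2 kb upstream (0 to 0.25%) and 1 of 1480 in the 2 kb downstream were marked (0.068%).

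**Figure D4:**
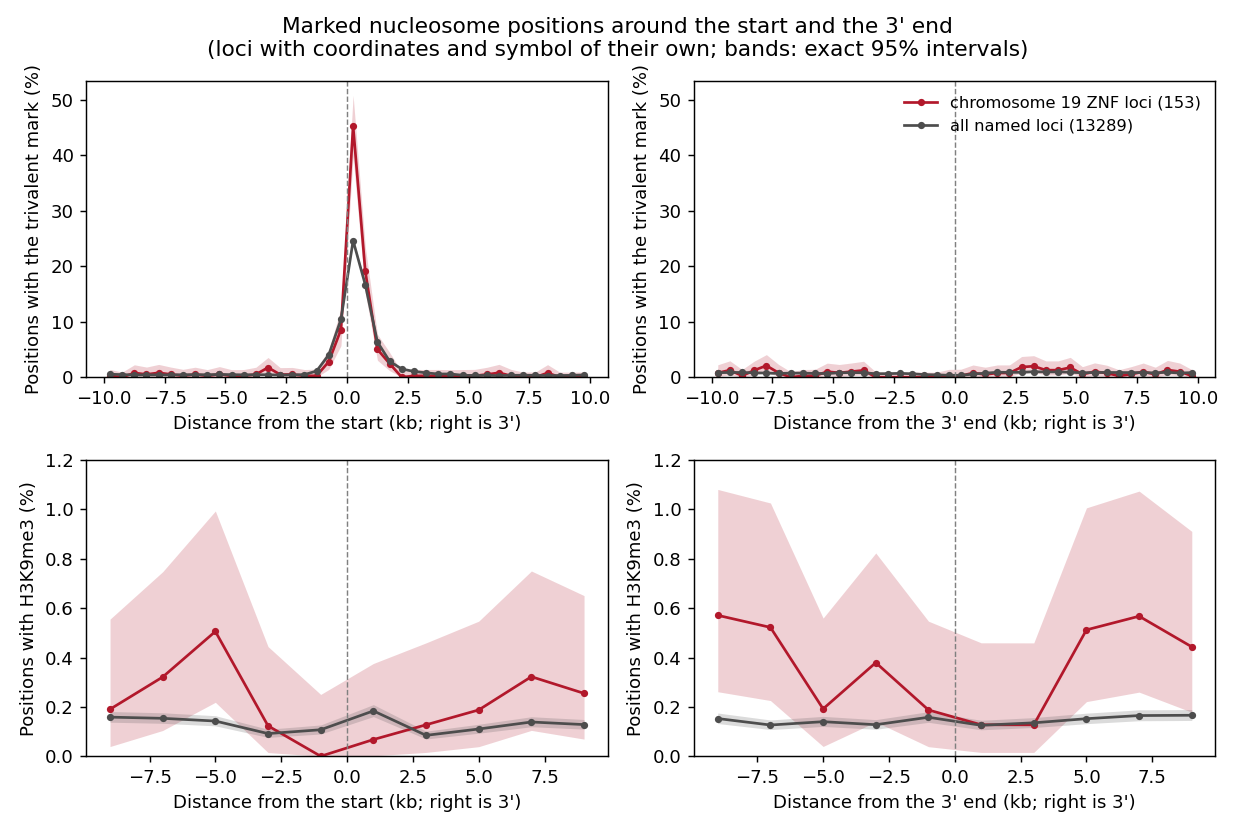
Share of nucleosome positions with T (top) and H3K9me3 (bottom) by distance in kb from the start (left) and from the 3' end (right) for 153 chromosome 19 ZNF loci and 13289 named loci with their own coordinates, with exact 95% bands. T peaks at 45.2% in the first 500 bp of ZNF loci, and the H3K9me3 bands of ZNF loci are wide and reach down to those of named loci within 2 kb of either end.

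ZNF274, the KRAB protein known for recruiting SETDB1 to ZNF genes, was expressed, with FPKM values of 8.10 and 6.65. It had 3 T positions at its start and 2 H3K9me3 positions in its own body, at 68.5 and 69.7% of the locus length, 9624 and 9254 bp from the 3' end. T at the start and H3K9me3 within 2 kb of the 3' end were found together in 4 of the 7 loci with H3K9me3 there. T stood at the start of 60.3% of all ZNF loci and 41.6% of named loci. ZNF101 had FPKM values of 7.71 and 7.47 and ZNF564 had 4.38 and 4.71. ZNF708 had 3.35 and 3.36 and ZNF583 had 1.21 and 1.33. Each of these 4 loci had 1 H3K9me3 position near the 3' end, from 1514 bp beyond it in ZNF564 to 1153 bp before it in ZNF101. All 4 were expressed, as were 93.0% of all ZNF loci with T at the start.

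The pair ZNF568 and ZNF829, which share coordinates in opposite directions in cluster 7, had the most H3K9me3, 8 positions over 110099 bp. ZNF568 had FPKM values of 0.231 and 0.167 and ZNF829 had 0.338 and 0.312, with no marked position at either outer start. The locus also held 3 H3K27me3 positions. ZNF254, in a merged locus of 233195 bp in cluster 5, had 4 H3K9me3 positions and FPKM values of 6.95 and 6.02. Which gene of that locus the positions belong to cannot be told. ZNF665 had 4 within 30075 bp and FPKM values of 0.125 and 0.142. The locus of ZNF69 and ZNF763, named above for its 7 T positions, also had 4 H3K9me3 positions, all in the body. ZNF700, which shares the coordinates of ZNF69, 3 loci listed as ZNF726, which share those of ZNF254, ZNF826P and ZNF536 also had 4. Of all 11 loci with 4 or more H3K9me3 positions, ZNF254, ZNF700 and the ZNF69 locus were expressed and the others were under an FPKM of 1. Over all ZNF loci 71.7% were expressed. Those of the 11 that share coordinates hold the same positions, so they are not separate observations.

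Over all ZNF loci, the FPKM of loci with and without H3K9me3 overlapped. The median was 1.64 (1.2 to 2.02) in 84 loci with H3K9me3 anywhere and 2.18 (1.62 to 2.77) in 153 without, and 70.2% and 72.5% were expressed. Where a T position stood at the start, the 44 loci with H3K9me3 had a median of 3.06 and the 99 without had 3.02. Where none did, the 40 with H3K9me3 had a median of 0.719 and the 54 without had 0.612. Among loci of their own coordinates the order was reversed in both pairs. With T, the median was 2.16 in 30 loci with H3K9me3 and 2.77 in 73 without. With no T, it was 0.133 in 15 loci with H3K9me3 and 0.181 in 35 without. In each pair the intervals overlap. Among the 24 silent loci, 9 had H3K9me3, and it was present in 35.4% of all ZNF loci and 26.6% of named loci.

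The clusters differed in H3K9me3. Over whole clusters 0.372% of positions (0.329 to 0.419) carried it, against 0.243% of the genome, and the share was 0.313% (0.255 to 0.381) inside ZNF loci and 0.419% (0.358 to 0.486) between them. Cluster 4 had 115 marked positions, 0.741% (0.612 to 0.888), and 22 of its 26 ZNF loci had at least 1. Cluster 7 had 49, 0.632% (0.468 to 0.834), in 18 of 29 loci, and cluster 5 had 23, 0.561% (0.356 to 0.841). Cluster 8, in contrast, had 9 positions over 0.994 Mb, 0.174% (0.0798 to 0.331), and none lay in its 26 ZNF loci. Cluster 10 had 24, 0.155% (0.0995 to 0.231). Clusters 1 and 6 had 0 positions, with intervals of 0 to 0.582% and 0 to 0.251% that include the share of the genome, and cluster 9 had 0.261%.

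**Figure D5:**
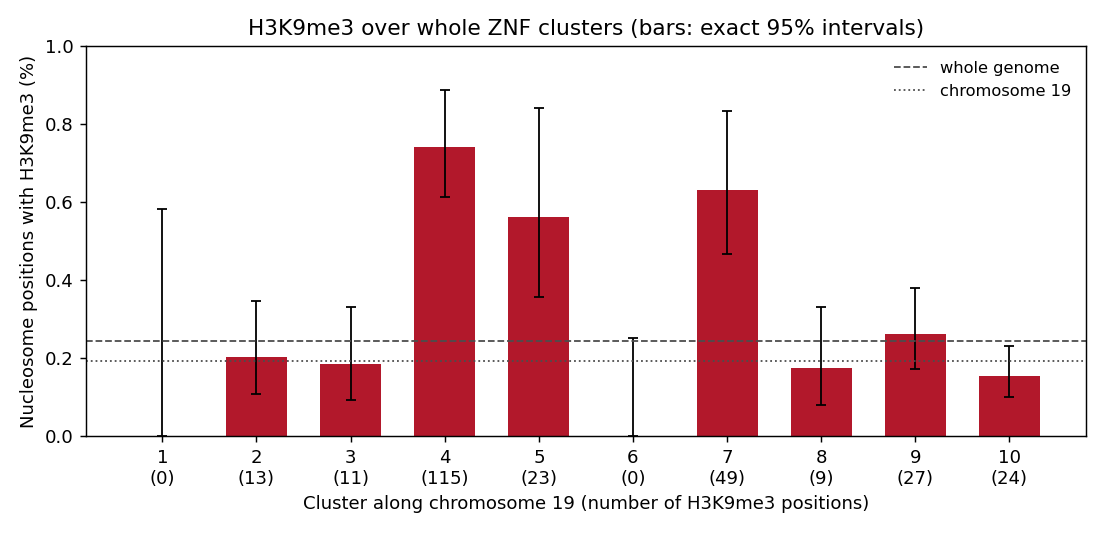
Share of nucleosome positions with H3K9me3 over each whole cluster in chromosome order, with exact 95% intervals, the number of marked positions under each bar and lines at the shares of the whole genome (0.243%) and chromosome 19 (0.192%). Clusters 4, 5 and 7 stand above both lines with their whole intervals, and clusters 1 and 6 have no marked position.

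H3K27me3 was present anywhere in 37 of 237 ZNF loci (15.6%, 11.2 to 20.9), against 23.4% of named loci. Among loci of their own coordinates the share was 9.80% (15 of 153), against 21.9%. The share was 12.0% in ZNF loci on other chromosomes, 15.1% in the other loci inside the clusters and 12.8% in the remaining loci of chromosome 19. At the start H3K27me3 was present in 2 ZNF loci (0.844%, 0.102 to 3.01), ZNF257 and ZNF880, against 7.43% of named loci and 4.01% of ZNF loci on other chromosomes. Of all H3K27me3 positions of the genome, 0.152% (0.109 to 0.207) lay in ZNF loci with 2 kb at both ends, against 0.280% of all nucleosome positions. ZNF536, a gene known from the nervous system that lies outside the clusters and is the longest locus with 414626 bp, had 7 H3K27me3 and 4 H3K9me3 positions, and it was listed at 0 in both FPKM columns. ZNF540, in a shared locus of cluster 7, had 3 of each and FPKM values of 0.261 and 0.346. ZNF541, a gene known from the testis, had 3 H3K27me3 positions and FPKM values of 0.0655 and 0.0385.

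The genes that ZNF proteins act through were expressed. Of 18 genes of the repression pathway, 17 were found in the table and all 17 had an FPKM of 1 or more, against 51.4% of named loci. TRIM28, the corepressor that itself lies at the distal end of chromosome 19, had FPKM values of 74.5 and 71.9. SETDB1, the methyltransferase, had 8.35 and 8.15, and its partner ATF7IP had 3.90 and 4.18. The HP1 genes CBX1, CBX3 and CBX5 had means of 52.5, 172 and 16.0. SUV39H1 and SUV39H2, the methyltransferases of pericentromeric heterochromatin, had 4.22 and 11.7, and EHMT1 and EHMT2, which place mono- and dimethylation of H3K9, had 8.5 and 19. ATRX and DAXX, the H3.3 chaperone complex, had 11.2 and 17.8. The HUSH subunits MPHOSPH8 and PPHLN1 and the associated MORC2 had 9.95, 27.8 and 11.7. Of the NuRD remodellers, CHD3 had 1.68 and the locus of CHD4 and NOP2 had 57.9. FAM208A was not found under that symbol. TRIM28, CBX1, CBX3 and the CHD4 locus were above the highest ZNF locus in both columns.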

How the data were processed

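The authors deposited FPKM per locus in 2 columns of 1 RNA-Seq sample, and start and end positions of nucleosomes and peaks. That the values are FPKM was read from the layout of the table, since the study's text writes RPKM, and whether the columns are separate cultures is not stated. The submitters' processing notes name hg19, BWA, Bowtie, TopHat2 2.1.0, HOMER 4.7 and edgeR. According to the methods, positions were called with DANPOS and peaks with NUCLIZE, which filters on enrichment, so unmarked means not called. The authors' fold changes, p-values and q-values between both columns were not used.

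A peak marked the position it overlapped most, and all peaks fell on the position of the same identifier. Strand was inferred from the order of locus numbers. Start and 3' end were windows of 2 kb, the body was the rest, and a position belonged where its midpoint lay. Shares have Clopper-Pearson intervals and medians order-statistic intervals, computed with Python 3.11.15, numpy 2.4.6, pandas 2.3.3 and scipy 1.17.1, and drawn with matplotlib 3.10.9. The counting was tested on simulated data. Members and gene lists were chosen with earlier results of these data known. Named genes are ZNF274 and the members with the most H3K9me3, FPKM, T or H3K27me3, with T and H3K9me3 at opposite ends, expressed without marks at the start, or with the widest gap between columns. Loci shown for their promoters, the low stretch and other single loci were chosen after their values were seen. Alternatives were other windows, overlaps, expression limits, columns and member sets.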

Additional observations from a re-analysis of the deposited data

How the results depend on the processing

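Of 45 values computed under an alternative, 37 stayed within the interval of the reported value. With windows of 5 kb, H3K9me3 was at the start of 5.06% and at the 3' end of 9.70% of ZNF loci. Wider windows hold more positions, and the shares of named loci at 5 kb were not computed. With the 153 loci of their own coordinates, T at the start was 67.3%, H3K9me3 in the body 26.8% and H3K27me3 anywhere 9.80%, and these loci held 0.203% of the H3K9me3 positions of the genome, being fewer loci. With an expression limit of 0.1 or 5 in place of 1, 89.9% or 19% were expressed. Counting 1 locus for each set of coordinates, an alternative chosen after seeing the data, gave T at the start of 65.0% and H3K9me3 in the body of 29.1%. The interval of this body share includes the 24.2% of named loci. With 1 sample per assay no spread between replicates is known. Peak lists carry no heights, so a stricter peak threshold could not be set, and called peaks in repeats depend on reads that align uniquely, whose share was not tested. The cause of the moved values was otherwise not tested.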

Other observations

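The named loci without a ZNF symbol that lie inside the clusters also carried H3K9me3. It was within 2 kb of the start of 10 of 106 loci (9.43%, 4.62 to 16.7), where ZNF loci had 1.27%, and in the body of 14 (13.2%), where ZNF loci had 33.8%. Among those with coordinates and a symbol of their own, the share at the start was 6.85% (5 of 73, 2.26 to 15.3), and its interval overlaps that of such ZNF loci (0.0165 to 3.59). A T position stood at the start of 26 of the 106 (24.5%). Single H3K9me3 positions were mostly isolated: 21.0% of the 271 in the clusters had another within 1 kb, as did 19.6% over the genome, while for H3K4me3 the shares were 98.1% and 95%.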
